A study of Mus musculus with 3 samples.

Results

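Mouse CAD cells, a catecholaminergic neuroblastoma line, were compared after transfection with siRNAs against Ptbp1 and Ptbp2 together and after transfection with control siRNA. Members were all gene clusters of the deposited gene table that had an exonic length and no value below 0, and 13302 genes of the 26841 in the table reached 1 CPM (reads scaled to a common library size) in the higher of both libraries and are called measured genes here. The series held 3 groups with 1 poly(A)+ library each, all of the same cell line harvested 72 h after ON-TARGETplus siRNAs were delivered with Lipofectamine 2000: control siRNA, Ptbp1 siRNA, and Ptbp1 siRNA plus Ptbp2 siRNA. Every group therefore shared the line, the reagent and the presence of an siRNA, and the labels state no genotype. The line is a tumour-derived stand-in for a neuron, and it divides. Values of the Ptbp1 siRNA library, in which Ptbp1 was low and Ptbp2 high, are given beside the pair, and they share the control library with it. Triplets of reads run from control through Ptbp1 siRNA to both siRNAs.

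Polypyrimidine tract binding proteins are RNA-binding proteins that recognise stretches rich in C and U and act on splicing, on intron retention and on RNA stability. PTBP1 is found in most dividing and non-neuronal cells, PTBP2 takes its place in developing neurons, and PTBP3 is a further paralogue. PTBP1 represses inclusion of an exon in Ptbp2 transcripts, which then carry a premature stop and are degraded, so loss of PTBP1 ordinarily raises PTBP2. The comparison addresses the state in which Ptbp1 is low and that rise of Ptbp2 is blocked.

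The 3 libraries held 16011466, 16899549 and 14242495 reads over all clusters, and 1 CPM stood for 15.3, 16.9 and 14.3 reads. Mitochondrial genes took 3.73%, 3.96% and 4.68% of the reads. A single library stood on each side, which leaves no replicate check and no basis for a p-value. Folds are CPM ratios, and the exact 95% intervals beside them describe counting error alone, with nothing of the spread between cultures. Differences are log2(CPM + 1) of both siRNAs minus control, a scale that understates those of low genes. A measured gene was called when it differed by 2-fold or more on that scale and its interval excluded a ratio of 1. Spliced and intron-retaining transcripts of a gene were counted into 1 value, and in a bulk culture fewer cells of a kind and less RNA per cell cannot be told apart.

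The cells carried the transcripts of their labelled identity in every library. Th, tyrosine hydroxylase, had 1426, 1581 and 1133 reads, Hand2, a sympathetic basic helix-loop-helix factor, had 13586, 13451 and 12542, and Prph, peripherin, had 20496, 21020 and 17356. Several markers of other cells were at or near 0, and others were not. Gfap of astrocytes had 0, 2 and 1 reads, Ptprc of leukocytes 0, 0 and 1, and Lum and Col3a1 of fibroblasts 0, 0 and 1 each. By contrast, Myh3 of the muscle list had 4272, 3574 and 2568 reads and Tnni1 1289, 1501 and 1138. Pmp22 of the oligodendrocyte and Schwann cell list had 5578, 5765 and 4884, Glul of the astrocyte list 1221, 1011 and 813, and Col1a1 of the fibroblast list 122, 88 and 48. Olig1, Olig2, Hba-a1, Hbb-b1, Slc1a3, Gja1, Col1a2 and Myocd had no read in any library. Under 1 CPM in the control were 7 of 16 fibroblast and mesenchymal genes, 9 of 16 muscle genes and 6 of 9 astrocyte genes. The same held for 8 of 11 oligodendrocyte and Schwann cell genes and 11 of 13 genes of blood, microglia and endothelium. Of the 16 fibroblast and mesenchymal genes listed, 9 were measured and 2 were called lower, and the list's summed level was 1839, 1414 and 1030 CPM, most of it Vim with 21605, 18936 and 11660 reads. The summed levels were 444, 377 and 323 CPM for 16 muscle genes, 134, 109 and 90.0 CPM for 9 astrocyte genes, 401, 378 and 375 CPM for 11 genes of oligodendrocytes and Schwann cells and 33.2, 27.3 and 23.8 CPM for 13 genes of blood, microglia and endothelium, where Pecam1 with 335, 259 and 161 reads was the gene that differed most. The part of these transcripts in the results was not tested.

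In the library with both siRNAs Ptbp1 was low and Ptbp2 lay just under its control level. Ptbp1 (chromosome 10, 79317351 to 79327179 on the mm9 build) had 7191, 1486 and 1516 reads and Ptbp2 (chromosome 3, 119421465 to 119486177) had 784, 3044 and 633. Ptbp1 stood at 22.7% of its control level and Ptbp2 at 86.8%, against 18.7% and 351% in the library with Ptbp1 siRNA alone. Per kilobase of exon, the family's 3 genes (with Rod1, the table's symbol for Ptbp3) summed to 193 CPM in the control, 88.4 after Ptbp1 siRNA and 63.9 after both siRNAs, and Ptbp2 made up 5.52%, 42.3% and 14.5% of that sum. Ptbp1 thus remained the more abundant of the pair after both siRNAs, at 3.92 times the per-kilobase level of Ptbp2 against 15.0 times in the control. These are RNA levels, and protein was not measured. Of the exon bases of Ptbp1, 16.3% overlap other genes, whose reads cannot be separated in libraries that do not mark strand.

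**Figure D1:**
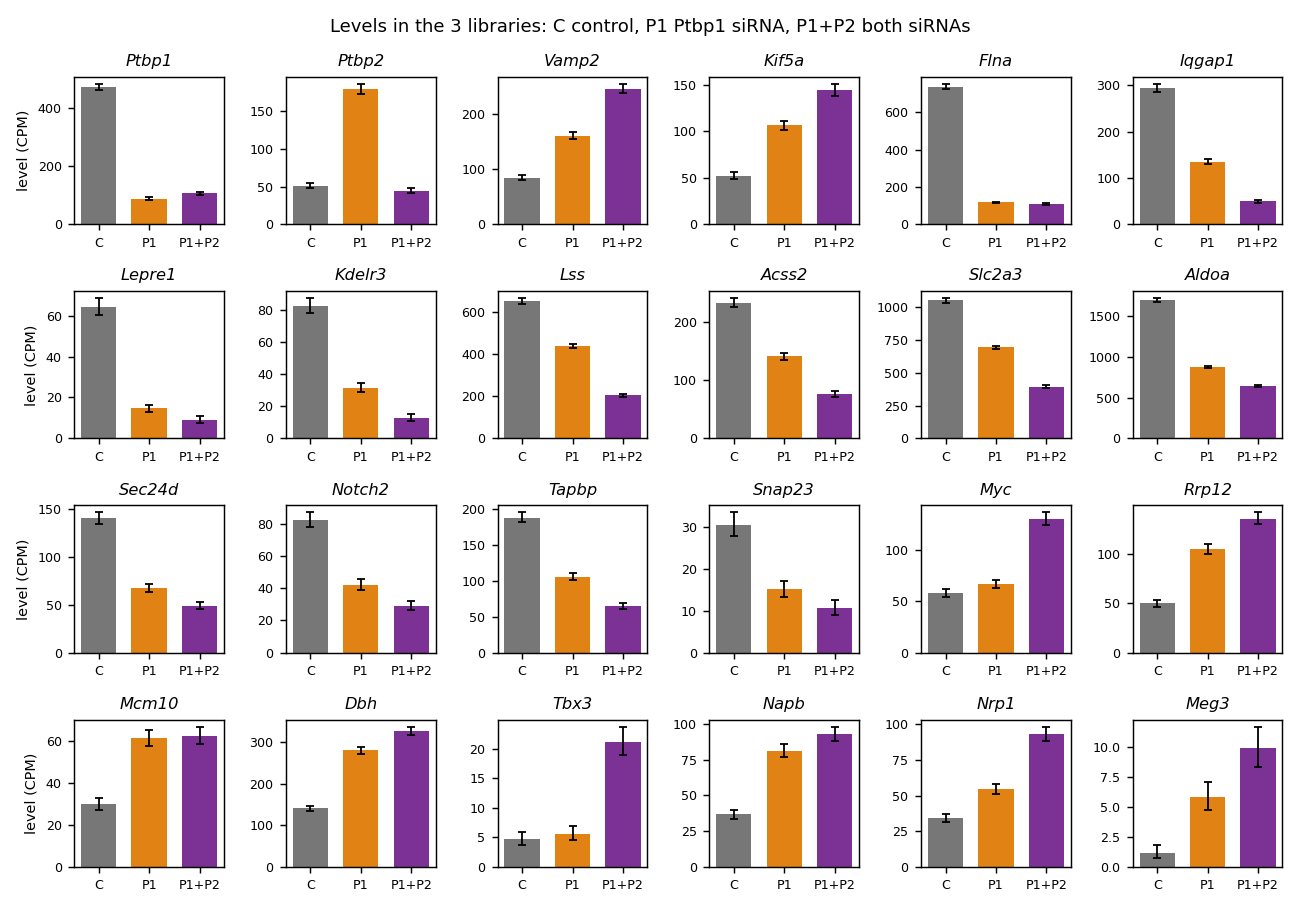
Levels of 24 genes in the control (C), Ptbp1 siRNA (P1) and both-siRNA (P1+P2) libraries, in CPM on axes that start at 0; bars are single libraries and whiskers are exact 95% Poisson intervals of the read number. Ptbp2 is high only in the Ptbp1 siRNA library among the 3, Flna is low in both knockdown libraries, and Myc and Tbx3 are high in the library with both siRNAs.

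Most genes lay close to their control level. Of the measured genes, 82.7% were within 1.5-fold of the control, the 5th and 95th percentiles of the log2 differences were -0.79 and 0.67, and the median was -0.01 with 49.4% of genes above 0. Called higher were 147 genes (1.11% of those measured) and called lower 354 (2.66%), 3.77% in all. Scaling by summed reads instead of trimmed means gave 193 higher and 286 lower, so the share of higher genes among those called was 29.3% or 40.3% depending on that choice. The counting interval excluded a ratio of 1 for 8154 genes. By the read ratio, 49 of the called genes were 3-fold or more higher and 111 were 3-fold or more lower. Just inside the 2-fold limit lay Tlx2 with 811, 1401 and 1525 reads and Stat2 with 2666, 2073 and 1231, and just outside it Nop58 with 1663, 2470 and 3105 and Tle6 with 785, 555 and 359.

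The lower genes held more of the reads than the higher ones. Genes called lower had a median control level of 35.2 CPM (not scaled by length) and together took 4.35%, 2.81% and 1.85% of all reads in the 3 libraries. Genes called higher had a median control level of 5.61 CPM and took 0.246%, 0.427% and 0.602%. Among the 569 genes at 300 CPM or more, 26 (4.57%) were called lower and 1 (0.176%) higher, while among the 1809 genes from 3 to 10 CPM the shares were 3.54% and 2.60%. The lowest control levels are also where the pseudocount pulls differences towards 0.

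**Figure D2:**
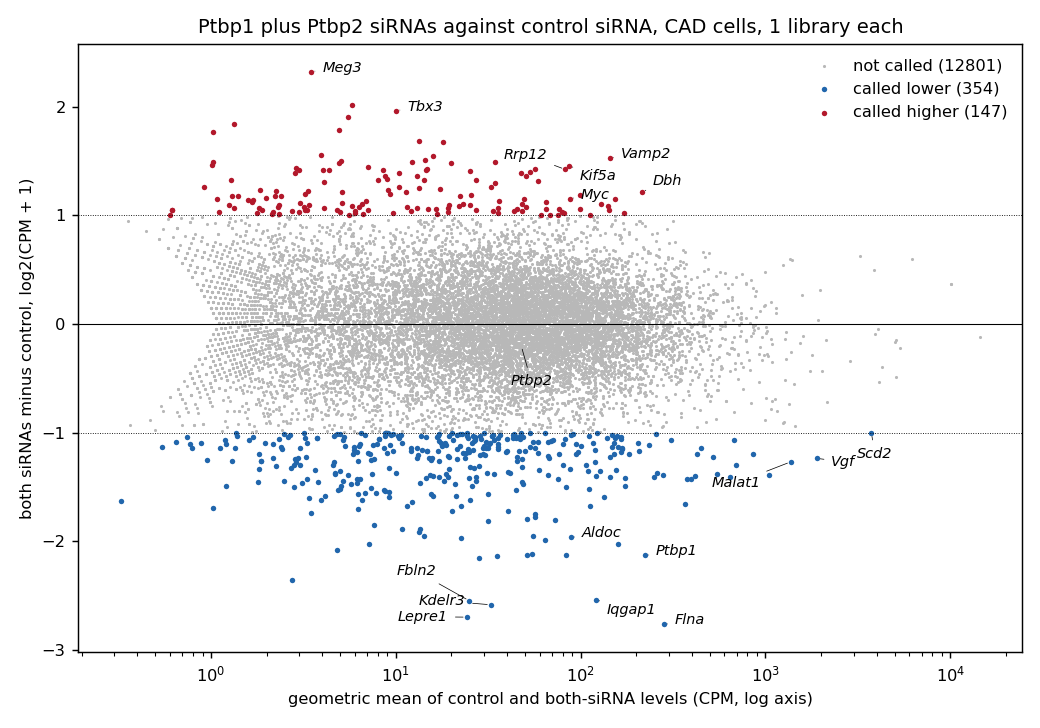
Difference between both siRNAs and control for the 13302 measured genes, on the log2(CPM + 1) scale, against the geometric mean of both levels in CPM on a log axis; dotted lines mark the 2-fold limit, blue points are genes called lower, red points genes called higher and grey points the rest. Flna, Lepre1, Kdelr3, Fbln2 and Iqgap1 lie lowest among the labelled genes, Meg3 and Tbx3 highest, and Ptbp2 lies near 0.

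The series dealt with neuronal transcripts whose amount depends on intron retention, and Vamp2 and Kif5a were followed as genes of that kind. Vamp2, the vesicle SNARE synaptobrevin (chromosome 11, 68902031 to 68905884), had 1296, 2723 and 3510 reads and stood 2.91-fold higher (2.73 to 3.10). Kif5a (chromosome 10, 126662756 to 126700137) encodes a kinesin-1 motor heavy chain that carries cargo along axons; it had 795, 1802 and 2055 reads and its level was 2.78-fold higher (2.56 to 3.02). Both were above the control although Ptbp2 was not, and both were highest in the library with both siRNAs. Sv2a, a glycoprotein of synaptic vesicles, had 430, 861 and 617 reads and a difference of 0.61, and was highest with Ptbp1 siRNA alone. The study picked these genes on samples of this kind, so their direction is not independent evidence. The last 100 bases of the last intron, upstream of the 3′ splice site, are shown for Vamp2 and Kif5a because PTB proteins bind pyrimidine tracts there; capitals mark TCTT and CTCTCT, read on the gene's strand of mm9.
Kif5a (chr10:126665478-126665577, minus strand): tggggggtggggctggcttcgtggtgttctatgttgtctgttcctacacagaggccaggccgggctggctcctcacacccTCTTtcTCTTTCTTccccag
Vamp2 (chr11:68904052-68904151, plus strand): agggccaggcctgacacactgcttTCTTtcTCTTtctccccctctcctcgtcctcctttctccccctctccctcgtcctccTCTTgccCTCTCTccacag
The Vamp2 window, at the end of intron 4 of 4, held 82% pyrimidines and the Kif5a window, at the end of intron 28 of 28, held 61%, and each held TCTT 3 times. Over the last introns of 11509 measured genes the mean was 56.1% pyrimidines and 1.12 TCTT a window, and 12.9% held CTCTCT, as the Vamp2 window did.

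Genes of the actin cytoskeleton and focal adhesions held several of the largest losses. Of 50 measured members 9 were called lower and 0 higher, against 2.66% and 1.11% of all measured genes, with 40 below 0. The median difference was -0.34, against -0.01 over all measured genes and -0.16 for the same members with Ptbp1 siRNA alone. Flna, which encodes filamin A, an actin crosslinker (chromosome X, 71468801 to 71491874), had 11306, 1981 and 1533 reads and stood 6.86-fold lower (6.50 to 7.24). Its paralogue Flnc, the filamin best known from muscle, had 6498, 6418 and 4549 reads and a difference of -0.41. Flna was nearly as low with Ptbp1 siRNA alone as with both.
Iqgap1, a scaffold that links actin to small GTPases (chromosome 7, 87857672 to 87948181), had 4499, 2279 and 708 reads and stood 5.91-fold lower (5.46 to 6.41). Here the Ptbp1 siRNA library lay between the other two. Lima1, an actin-bundling LIM protein, had 1667, 794 and 343 reads and was 4.52-fold lower, Cnn2, calponin 2, had 1160, 461 and 234 and was 4.61-fold lower, and Cald1, caldesmon, had 2695, 1123 and 564 and was 4.45-fold lower. Each of these 4 genes descended in the same order, control, Ptbp1 siRNA, both siRNAs. Of the focal adhesion linkers, Tln1, talin 1, had 3043, 1853 and 1061 reads and was 2.67-fold lower, and Vcl, vinculin, had 1364, 813 and 550 and was 2.31-fold lower, although 39.9% of the exon bases of Vcl overlap another gene. Capg, an actin-capping protein, had 128, 77 and 37 reads and was 3.22-fold lower. The genes of actin itself differed less: Actb had 74727, 65429 and 52798 reads (-0.40) and Actg1 1953, 1630 and 1064 (-0.76). Near the control were Cfl1, cofilin, with 8964, 9795 and 9676 reads (0.21), Pfn1, profilin, with 7505, 8817 and 7309 (0.07) and the myosin heavy chain Myh10 with 4604, 5227 and 4000 (-0.10).
Regulators of the same structures held few calls. Of 27 small GTPases of the cytoskeleton and their regulators, Arhgap18, with 431, 322 and 189 reads, was called lower, and Arhgap22, with 149, 260 and 475, was called higher, though 36.9% of its exon bases overlap another gene. Rhoa itself had 1789, 1642 and 1269 reads and a difference of -0.39. Among 13 YAP and TEAD genes the median was -0.52, further below 0 than that of the actin list, with 5 genes above 0, and Wwtr1, which encodes the coactivator TAZ, had 1601, 1223 and 626 reads and was 2.38-fold lower (2.17 to 2.61).

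The CArG box, the element bound by serum response factor, was searched on both strands in the RefSeq promoter table (250 bases before to 50 after each start, build GRCm38.p6), in which 10033 of the measured genes were found under 9992 symbols. It lay in 7 of 43 actin and adhesion genes (16.3%), 11 of 267 genes called lower (4.12%), 3 of 107 called higher (2.80%) and 158 of 9992 measured genes (1.58%). The windows of the members with a match and the largest differences are shown, with the match in capitals.
Cnn2 (chr10:79988350-79988649, plus strand): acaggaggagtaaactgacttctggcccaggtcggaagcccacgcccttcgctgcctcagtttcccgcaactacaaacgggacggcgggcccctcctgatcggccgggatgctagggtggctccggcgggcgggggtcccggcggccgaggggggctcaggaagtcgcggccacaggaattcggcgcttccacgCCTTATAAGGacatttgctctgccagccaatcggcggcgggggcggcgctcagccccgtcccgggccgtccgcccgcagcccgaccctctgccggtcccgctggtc
Lima1 (chr15:99820100-99820399, minus strand): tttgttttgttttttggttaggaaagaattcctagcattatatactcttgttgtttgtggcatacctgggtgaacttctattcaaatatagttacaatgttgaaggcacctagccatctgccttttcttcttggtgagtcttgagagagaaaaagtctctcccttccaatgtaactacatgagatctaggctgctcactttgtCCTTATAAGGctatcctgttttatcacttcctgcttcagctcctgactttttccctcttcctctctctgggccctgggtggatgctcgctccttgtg
In both windows the box lies within 60 bases before the start, and a match in letters is no evidence of binding. The share of the actin and adhesion list describes that list, whatever its members did here.

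Genes that modify and fold collagen held several calls. Of 20 measured hydroxylases and collagen chaperones 7 were called lower, against 2.66% of all measured genes. Below 0 lay 19 of the 20, and the median was -0.73 (-0.44 with Ptbp1 siRNA alone). Lepre1, a prolyl 3-hydroxylase (chromosome 4, 118905521 to 118921583), had 985, 248 and 129 reads and stood 7.10-fold lower (5.91 to 8.60). Fkbp14, a prolyl isomerase of the endoplasmic reticulum, had 941, 340 and 185 reads and was 4.73-fold lower (4.04 to 5.57). The prolyl 4-hydroxylase subunit P4ha1 had 6925, 4541 and 2445 reads and was 2.64-fold lower, and P4ha2 had 10274, 6990 and 4312 and was 2.22-fold lower. Sparc, a collagen-binding matrix protein also on the fibroblast list, had 4364, 2844 and 1511 reads and was 2.69-fold lower (2.53 to 2.85). Serpinh1, the collagen chaperone HSP47, was the member above 0, with only 54, 53 and 62 reads.
The collagens and the matrix around them also lay mostly below 0. Among 15 measured collagens 3 were called lower and the median was -0.52. Col18a1, a basement membrane collagen, had 3380, 2736 and 1428 reads and was 2.20-fold lower, Col16a1 had 218, 164 and 86, and Col1a1, a chain of fibrillar collagen also on the fibroblast list, had 122, 88 and 48. Fbln2, fibulin 2, a matrix glycoprotein (chromosome 6, 91162759 to 91222535), had 961, 242 and 141 reads and stood 6.34-fold lower (5.31 to 7.62). Efemp2, fibulin 4, had 415, 160 and 92 reads and was 4.20-fold lower (3.34 to 5.32), while Fbln1 had 13000, 12136 and 8517 and a difference of -0.51. Agrn, agrin, had 3376, 2188 and 1337 reads and was 2.35-fold lower, and Nid1, nidogen, had 1811, 1478 and 778 and was 2.17-fold lower. Of 24 matrix genes 5 were called lower and 0 higher, with a median of -0.47 (-0.19 with Ptbp1 siRNA alone). No integrin of 14 was called, though 12 were below 0: Itga5 had 2586, 2290 and 1392 reads (-0.78) and Itgb1, the common beta chain, 13288, 14214 and 12094 (-0.03).

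Early secretory genes also lay mostly below 0. Of 31 endoplasmic reticulum chaperones and unfolded protein response genes 28 were below 0 with a median of -0.43, and 2 were called lower. The share called lower over all measured genes was 2.66%. Kdelr3, a receptor that retrieves resident proteins from the Golgi (chromosome 15, 79346899 to 79358126), had 1264, 536 and 184 reads and stood 6.39-fold lower (5.47 to 7.50). Its relatives differed less, Kdelr1 with 2063, 1706 and 1281 reads (-0.58) and Kdelr2 with 4119, 3037 and 2246 (-0.77). Rcn3, reticulocalbin 3, a calcium-binding protein of the same compartment, had 4977, 2210 and 1125 reads and was 4.12-fold lower (3.86 to 4.40).
In the Golgi and coat list 35 of 38 members were below 0 and the median was -0.48. Called lower were 4, against 2.66% of all measured genes. Sec24d, a cargo adaptor of the COPII coat that carries proteins out of the endoplasmic reticulum (chromosome 3, 122970415 to 123068555), had 2155, 1142 and 697 reads and stood 2.88-fold lower (2.64 to 3.14). Sec23a, its coat partner, had 5558, 3517 and 2559 reads and was 2.02-fold lower, and Lman1, a cargo receptor, had 3397, 2070 and 1520 and was 2.08-fold lower. Creb3l2, a membrane-bound transcription factor known to act on secretory genes, had 4499, 1995 and 1478 reads and was 2.83-fold lower (2.67 to 3.01), while its relative Creb3l1 had 67, 95 and 82. Paralogues within the coat were nearer the control: Sec24a had 2256, 1808 and 1230 reads (-0.76), Sec24c 2508, 2266 and 1726 (-0.43), Sec24b 2015, 2126 and 1679 (-0.16) and Sec23b 1935, 2187 and 1846 (0.04). The list's summed level was 9436, 7149 and 6467 CPM, 68.5% of the control in the library with both siRNAs. Surf4, another cargo receptor, with 7104, 4949 and 3735 reads (-0.82), and the small GTPase Sar1a, with 3803, 2134 and 1882 (-0.91), stayed within 2-fold. The sugar-transferring enzymes that follow in the Golgi had a median of -0.07 over 32: B4galt1, a galactosyltransferase, was called lower with 731, 552 and 326 reads, and B3galt6, which builds the linker of glycosaminoglycans, was called higher with 36, 73 and 113. Among 39 Rab GTPases and regulators the median was -0.07, and Rab32, a GTPase of lysosome-related organelles, was the call, with 95, 46 and 24 reads (3.68-fold lower, 2.33 to 6.03).

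**Figure D3:**
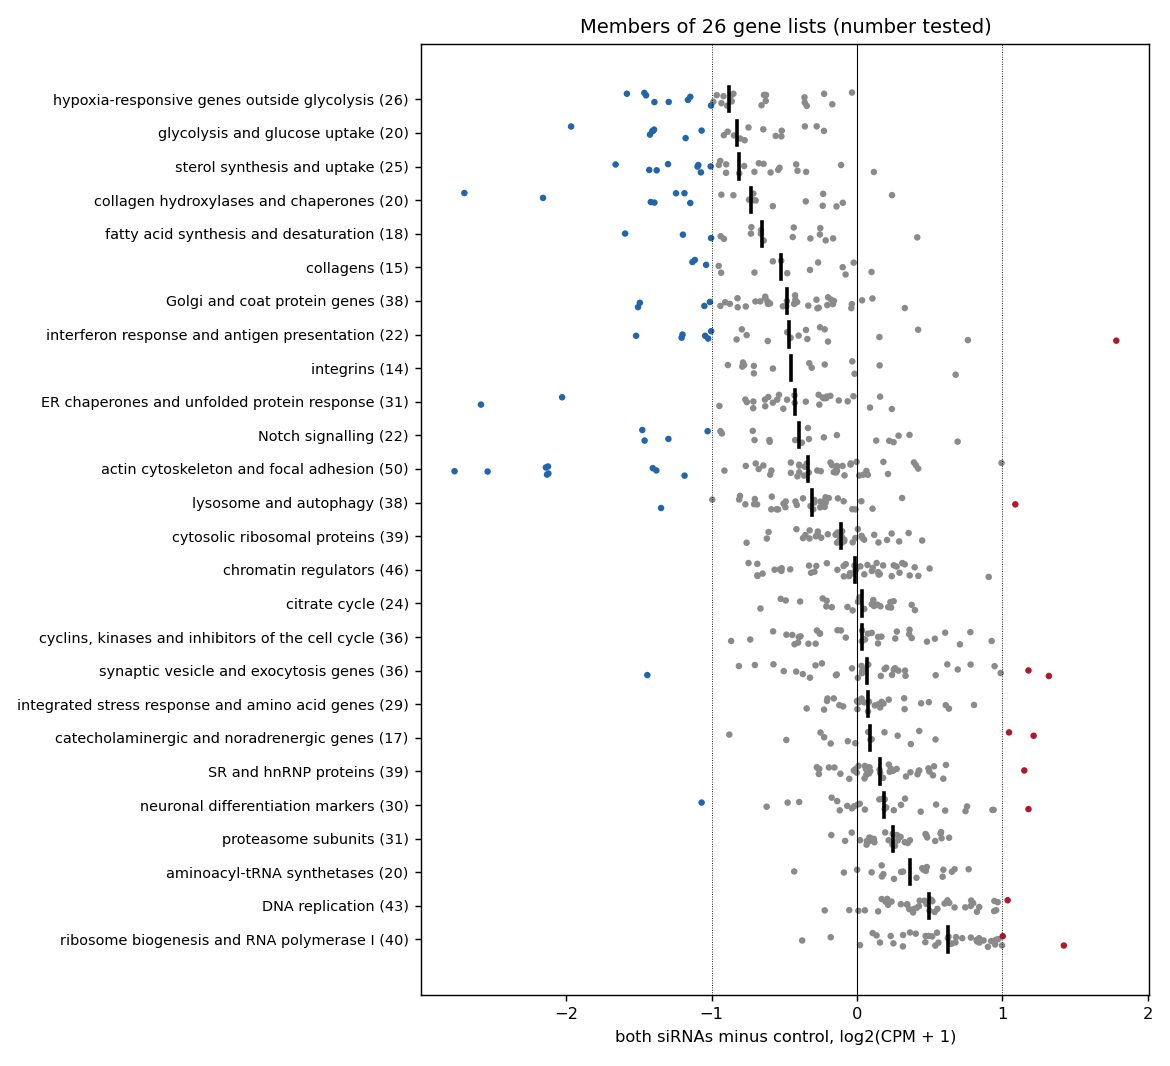
Differences of both siRNAs minus control, on the log2(CPM + 1) scale, for the measured members of 26 gene lists; each point is a gene, blue called lower, red called higher, grey neither, black bars are list medians and dotted lines the 2-fold limit. The 5 lists at the top have medians from -0.88 to -0.65, and ribosome biogenesis and DNA replication at the bottom have medians of 0.63 and 0.50.

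Genes of cholesterol and fatty acid synthesis lay below the control along most of both routes. All but 1 of 25 measured sterol genes were below 0, and 8 were called lower, against 2.66% of all measured genes. The median was -0.81 (-0.42 with Ptbp1 siRNA alone) and the summed level was 8289, 6006 and 4314 CPM. Lss, lanosterol synthase (chromosome 10, 75994373 to 76016680), had 9975, 7449 and 2928 reads and stood 3.17-fold lower (3.04 to 3.30). Of the feedback genes, Insig1, which holds sterol-sensing regulators in the endoplasmic reticulum, had 10010, 6682 and 3452 reads and was 2.70-fold lower (2.60 to 2.81). Stard4, which carries sterols between membranes, had 2585, 1932 and 969 reads and was 2.48-fold lower, and of the mevalonate enzymes Mvd had 4576, 3793 and 1984 and was 2.15-fold lower, and Idi1 had 1315, 1028 and 567 and was 2.16-fold lower. In each of these the Ptbp1 siRNA library lay between the others. The member above 0 was Scap, the escort of those regulators, with 2342, 2920 and 2364 reads (0.12). Srebf2, the transcription factor of the route, had 11988, 10709 and 6837 reads (-0.70).
Of 18 fatty acid genes 17 were below 0 with a median of -0.65. Acss2, which makes acetyl-CoA from acetate, had 3584, 2396 and 1095 reads and was 3.05-fold lower (2.85 to 3.26). Scd2, a stearoyl-CoA desaturase, had the largest loss of all genes in CPM, with 81315, 58048 and 37754 reads, levels of 5306, 3425 and 2648 CPM, and a ratio 2.00-fold lower (1.98 to 2.03). Scd1 had 19877, 14535 and 8060 reads and was 2.29-fold lower. Just short of 2-fold were Acly, which supplies acetyl-CoA from citrate, with 30669, 24667 and 14897 reads (-0.94), and Fasn, which builds the acyl chain, with 26236, 21497 and 12945 (-0.91). Srebf1, the lipogenic transcription factor, had 9730, 8638 and 5724 reads (-0.66). The sterol regulatory element in the form TCACNCCAC, searched on both strands, lay in 0 of 16 sterol genes and in 133 of 9992 measured genes (1.33%) in the promoter windows, which says only that these letters are not in those windows.

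All 20 measured genes of glycolysis and glucose uptake were below 0, with a median of -0.82 (-0.36 with Ptbp1 siRNA alone) and a summed level of 12173, 8944 and 6559 CPM. Called lower were 7, against 2.66% of all measured genes. They ran from uptake to export: the glucose transporters Slc2a3, with 16143, 11797 and 5654 reads, and Slc2a1, with 3840, 3168 and 1571, the kinase Pfkl with 10389, 7763 and 3648, the aldolases Aldoa with 25945, 14775 and 9171 and Aldoc with 2698, 1582 and 632, the enolase Eno2 with 6840, 5929 and 3028, and the lactate exporter Slc16a3 with 9421, 7144 and 3259. Aldoc (chromosome 11, 78136683 to 78140263) was the lowest of them, 3.97-fold lower (3.64 to 4.34). Slc2a3 was 2.66-fold lower (2.58 to 2.74), and Slc16a3, with 15.6% of its exon bases shared, was 2.69-fold lower. All 7 were lowest with both siRNAs. The other phosphofructokinases were nearer the control, Pfkp with 11855, 11459 and 8603 reads (-0.36) and Pfkm with 2777, 3078 and 2206 (-0.23). Ldha, lactate dehydrogenase A, had 23309, 23234 and 15153 (-0.52).
The routes beside glycolysis did not share this size. The median was -0.15 over 7 pentose phosphate genes and 0.03 over 24 citrate cycle genes, with no gene called in either. In the citrate cycle list 14 genes were above 0, Cs, citrate synthase, had 10938, 12136 and 10925 reads (0.10), and Idh2 was lowest with 4916, 3629 and 2883 (-0.66).
Of 26 measured genes outside glycolysis that are known to respond to low oxygen, 8 were called lower, against 2.66% of all measured genes. All 26 were below 0, the nearest by 0.03, and the median was -0.88 (-0.34 with Ptbp1 siRNA alone). Adm, adrenomedullin, had 436, 379 and 126 reads and was 3.22-fold lower (2.63 to 3.96). Car9, carbonic anhydrase 9, had 144, 100 and 40 reads and was 3.35-fold lower (2.35 to 4.88), Egln3, an oxygen-sensing prolyl hydroxylase, had 2763, 2240 and 1141 and was 2.25-fold lower, and Ddit4, an inhibitor of mTOR signalling, had 16615, 11627 and 6294 and was 2.46-fold lower (2.39 to 2.53). Among the oxygen-regulated factors themselves, Arnt, the constant subunit, had 1405, 1045 and 645 reads and was 2.03-fold lower, Hif3a had 169, 120 and 48 and was 3.28-fold lower, and Hif1a had 3307, 3170 and 2630 (-0.23). The list shares 4 genes, P4ha1, P4ha2, Plod1 and Plod2, with the collagen hydroxylases.
The core of the hypoxia response element, ACGTG, was searched on both strands of the same promoter windows; it is part of the E-box CACGTG. It lay in 13 of 19 glycolysis genes (68.4%), 15 of 22 of the hypoxia list (68.2%) and 11 of 18 collagen hydroxylase genes (61.1%), against 2956 of 9992 measured genes (29.6%), 95 of 267 called lower (35.6%) and 31 of 107 called higher (29.0%). The windows of the 2 members with a match and the largest differences are shown for glycolysis and for the hypoxia list, matches in capitals, build GRCm38.p6.
Aldoc (chr11:78322823-78323122, plus strand): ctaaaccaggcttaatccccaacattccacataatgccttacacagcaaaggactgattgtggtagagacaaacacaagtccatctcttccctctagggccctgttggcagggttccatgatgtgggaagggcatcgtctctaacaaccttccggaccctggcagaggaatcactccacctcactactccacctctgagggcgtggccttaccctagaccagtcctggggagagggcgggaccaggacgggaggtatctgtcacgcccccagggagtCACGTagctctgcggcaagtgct
Slc16a3 (chr11:120948817-120949116, plus strand): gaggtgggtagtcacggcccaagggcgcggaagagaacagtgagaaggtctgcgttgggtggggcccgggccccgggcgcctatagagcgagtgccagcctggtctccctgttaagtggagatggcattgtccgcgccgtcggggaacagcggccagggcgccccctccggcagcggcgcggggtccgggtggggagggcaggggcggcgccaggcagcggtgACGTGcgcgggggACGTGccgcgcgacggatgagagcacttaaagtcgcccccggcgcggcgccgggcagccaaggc
Car9 (chr4:43506776-43507075, plus strand): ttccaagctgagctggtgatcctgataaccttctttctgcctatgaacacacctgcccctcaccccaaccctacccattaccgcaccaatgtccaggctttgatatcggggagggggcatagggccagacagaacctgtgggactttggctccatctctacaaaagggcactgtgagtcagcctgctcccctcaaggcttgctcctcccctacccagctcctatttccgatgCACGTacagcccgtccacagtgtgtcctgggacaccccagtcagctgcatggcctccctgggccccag
P4ha1 (chr10:59323046-59323345, plus strand): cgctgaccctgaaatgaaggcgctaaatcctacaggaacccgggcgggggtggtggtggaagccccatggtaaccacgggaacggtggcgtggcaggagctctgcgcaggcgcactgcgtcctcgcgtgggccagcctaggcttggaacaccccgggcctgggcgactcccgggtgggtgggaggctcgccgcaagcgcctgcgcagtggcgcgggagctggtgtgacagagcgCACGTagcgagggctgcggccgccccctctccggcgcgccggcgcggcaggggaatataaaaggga
The hypoxia list was compiled from genes known to answer to low oxygen, so a high share of the core is a property of such a list. The lists of glycolysis and of collagen hydroxylases were compiled by function. What lies behind their shares was not tested, and all of these shares are given as a description.

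**Figure D4:**
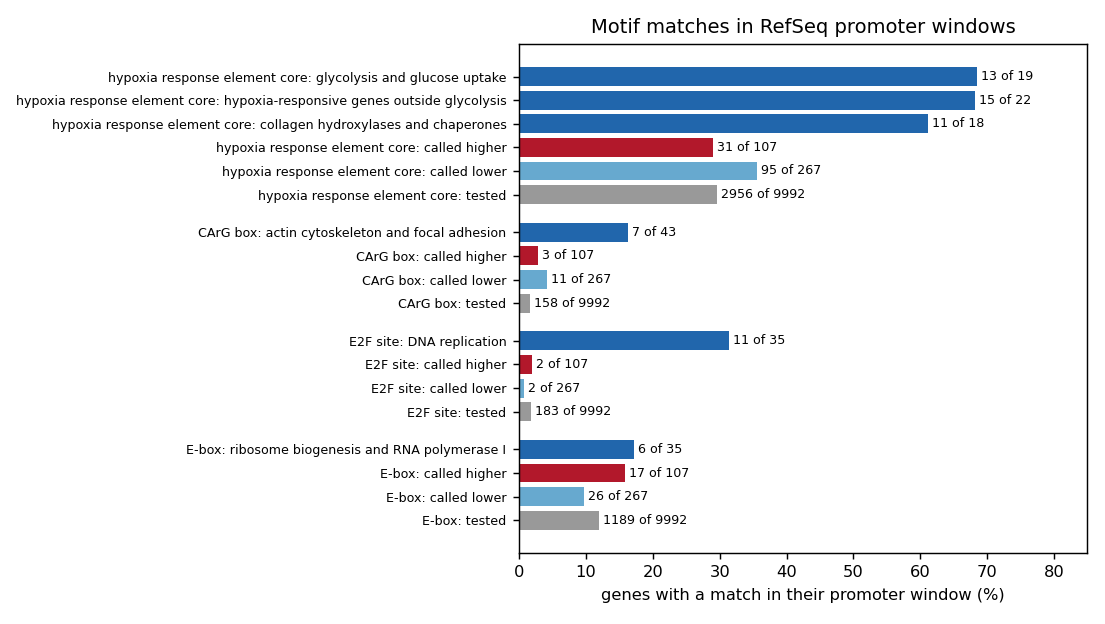
Share of genes with at least 1 motif match on either strand of their RefSeq promoter window (%), with the number of genes beside each bar, for the gene lists (dark blue), genes called higher (red), genes called lower (light blue) and all measured genes (grey). The hypoxia response element core stands at 61.1% to 68.4% in 3 lists against 29.6% of measured genes. The E2F site stands at 31.4% of DNA replication genes, 1.83% of measured genes and 1.87% of genes called higher. Shares of lists describe the lists only.

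Notch receptors, which let neighbouring cells hold each other back from differentiation, were lower. Of 22 measured Notch pathway genes 4 were called lower and 0 higher, against 2.66% and 1.11% of all measured genes. The list's median was -0.40 (-0.20 with Ptbp1 siRNA alone). Notch2 (chromosome 3, 97817462 to 97954291) had 1262, 716 and 413 reads and stood 2.84-fold lower (2.54 to 3.18). Notch3 had 358, 252 and 112 reads and was 2.97-fold lower (2.40 to 3.71), and Notch1 had 213, 167 and 90 and was 2.20-fold lower (1.71 to 2.85). Among target genes Hey2 had 120, 98 and 37 reads and was 3.02-fold lower, Hey1 783, 712 and 376 (-0.93) and Hes1 167, 135 and 89 (-0.72). Rbpj, the DNA-binding partner of the receptors, had 3218, 2701 and 1971 reads (-0.60), while of the ligands Jag2 had 1094, 1298 and 807 (-0.33) and Dll1 had 37, 44 and 30.
The other signalling lists held 1 to 3 called members each. In the Wnt list (27 genes, median -0.10) the ligand Wnt11 was called lower with 695, 532 and 200 reads, the receptor Fzd7 with 698, 702 and 298 and the transducer Dvl2 with 1086, 915 and 412. Part of the exon bases of both Wnt11 and Dvl2 (19.7% for Dvl2) overlaps other genes. Fzd7 was low in the library with both siRNAs alone among the 3. Dkk1, a secreted inhibitor of the pathway, had 1598, 1458 and 2444 reads (0.71) and Ctnnb1, beta-catenin, 7284, 8157 and 7291 (0.11).
In the TGF-beta and BMP list (26 genes, median -0.05) Id3, an inhibitor of basic helix-loop-helix factors, was called higher with 370, 780 and 773 reads, and 1 member was called lower. Its relative Id1 had 977, 1805 and 1308 reads (0.52) and Id2 414, 715 and 674 (0.79). Of 29 receptor tyrosine kinases and ephrins 18 were below 0 with a median of -0.34, and 1 was called, Efna1, lower with 220, 156 and 60 reads. Ret, a receptor for factors of the GDNF family, had 22036, 26813 and 24618 reads (0.26).
Among immediate early genes (23 genes, median -0.08) Ier3, an immediate early gene of stress, was called lower with 1146, 1186 and 441 reads, Dusp4, a phosphatase of MAP kinases, was called lower with 9944, 7059 and 4017, and Myc was called higher. Ier3 was near the control with Ptbp1 siRNA alone and low with both siRNAs. Fos had 598, 637 and 425 reads (-0.38) and Egr1 477, 700 and 755 (0.75).

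Several genes of antigen presentation on class I molecules were called lower. In the interferon and antigen presentation list 6 of 22 genes were called lower and 1 higher, against 2.66% and 1.11% of all measured genes. The list's median was -0.47 (-0.08 with Ptbp1 siRNA alone). Tapbp, tapasin, which loads peptides onto class I molecules (chromosome 17, 34056573 to 34066236), had 2877, 1785 and 925 reads and stood 2.89-fold lower (2.69 to 3.12). The peptide transporter Tap1 had 315, 240 and 119 reads and was 2.46-fold lower, the class I heavy chain H2-K1 had 4265, 3386 and 1720 and was 2.31-fold lower, and H2-D1 had 1951, 1621 and 886 and was 2.05-fold lower. Heavy-chain genes have near-identical copies, so their reads may be divided among them in ways the table does not show. B2m, the light chain, had 2134, 1981 and 1444 reads (-0.46). H2-DMa, which serves class II molecules, was called higher from a low level, with 35, 93 and 147 reads (4.51-fold higher, 3.10 to 6.73). Stat2 with 2666, 2073 and 1231 reads and the RNA sensor Ddx58 with 373, 316 and 161 were called lower, and 18 of the 22 genes were below 0. Among interferon-induced members Ifitm3 had 160, 85 and 80 reads (-0.79), Bst2 156, 199 and 80 (-0.76) and the immunoproteasome subunit Psmb8 304, 354 and 180 (-0.61), while Mx1 had 21, 33 and 31 and Ifit2 7, 13 and 21.

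Genes of protein turnover lay on different sides of the control. In the lysosome and autophagy list 34 of 38 genes were below 0 with a median of -0.31. Wipi1, an autophagosome factor, had 3821, 2359 and 1389 reads and was 2.56-fold lower (2.41 to 2.72), and Npc2, a lysosomal cholesterol carrier, had 5248, 4001 and 2779 (-0.81). Sgsh was called higher, with 56, 112 and 127 reads, and 21.6% of its exon bases overlap another gene.
Proteasome subunits lay above the control by a small amount: 28 of 31 were above it and none was called, with a median of 0.25. The ATPase subunit Psmc2 had 1444, 2063 and 2093 reads (0.63) and the core subunit Psma6 4281, 4603 and 5133 (0.36).
Aminoacyl-tRNA synthetases were above 0 in 18 of 20 cases with a median of 0.36 and no call, for example Kars with 7865, 11469 and 10170 reads (0.47) and Aars with 12854, 20016 and 16699 (0.48). Genes of the integrated stress response had a median of 0.08 over 29: Atf4 had 12587, 14102 and 11800 reads (0.01), Ddit3 1247, 2006 and 1163 (0.00) and Asns 14211, 17242 and 14877 (0.17). Heat shock proteins (21 genes) had a median of 0.06, and the list held 1 call, Dnajb4, lower with 325, 235 and 140 reads. Oxidative stress and glutathione genes had no call among 25 and a median of 0.07.

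DNA replication genes were above the control almost throughout. Of 43 measured genes 41 were above 0, the median was 0.50 (0.48 with Ptbp1 siRNA alone) and the summed level was 4788, 6871 and 6800 CPM, but a single member, Mcm10, reached the limit. Mcm10, an initiation factor that loads polymerase alpha (chromosome 2, 4911795 to 4933782), had 461, 1044 and 895 reads and stood 2.09-fold higher (1.86 to 2.34). Of the helicase subunits, Mcm2 had 3488, 7247 and 6264 reads (0.95) and Mcm6 2954, 5385 and 4936 (0.84), and the primase subunit Prim1 had 1291, 2319 and 2347 (0.96). The summed level of the list was about the same in both knockdown libraries. Below 0 were Tyms, thymidylate synthase, with 480, 650 and 381 reads, and Tk1, thymidine kinase, with 1601, 2054 and 1436.
Cyclins, kinases and their inhibitors had no call among 36 genes and a median of 0.03. Of transcripts that mark dividing cells, Mki67 had 7233, 8059 and 6234 reads (-0.11) and Top2a 16527, 18478 and 12203 (-0.33), whereas Ccnb1, a mitotic cyclin, had 1090, 1577 and 1752 (0.78), Foxm1, a transcription factor of the cell cycle, 2615, 4231 and 3986 (0.71) and Ccnd1, a cyclin of G1, 3869, 5395 and 5490 (0.61). E2f1, a transcription factor of the S phase, had 1885, 3650 and 3347 reads (0.93), and Rbl1, which encodes the pocket protein p107, had 733, 695 and 368 (-0.86). Of 18 p53 response genes the antiproliferative Btg2 was called lower with 489, 310 and 162 reads and Trp53inp1 with 374, 261 and 138, and Cdkn1a, an inhibitor of cyclin-dependent kinases, had 1193, 1655 and 838 (-0.40).
The E2F site, TTTCGCGC or TTTGGCGC on either strand, lay in 11 of 35 DNA replication genes (31.4%) and 183 of 9992 measured genes (1.83%). It lay in 2 of 107 genes called higher (1.87%), close to the share of all measured genes, and in 2 of 267 called lower (0.749%). The share of the replication list describes that list, whatever its members did here. The windows of the 2 replication genes with a match and the largest differences are shown, matches in capitals; the Mcm6 window holds 2 overlapping matches on opposite strands and a further one nearer the start.
Mcm6 (chr1:128359656-128359955, minus strand): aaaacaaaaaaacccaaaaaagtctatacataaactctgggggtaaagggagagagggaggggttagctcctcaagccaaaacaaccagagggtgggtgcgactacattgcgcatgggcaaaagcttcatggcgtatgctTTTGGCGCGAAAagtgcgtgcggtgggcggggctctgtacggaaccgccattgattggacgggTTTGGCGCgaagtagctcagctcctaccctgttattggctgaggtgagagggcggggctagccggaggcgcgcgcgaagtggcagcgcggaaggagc
Mcm7 (chr5:138171834-138172133, minus strand): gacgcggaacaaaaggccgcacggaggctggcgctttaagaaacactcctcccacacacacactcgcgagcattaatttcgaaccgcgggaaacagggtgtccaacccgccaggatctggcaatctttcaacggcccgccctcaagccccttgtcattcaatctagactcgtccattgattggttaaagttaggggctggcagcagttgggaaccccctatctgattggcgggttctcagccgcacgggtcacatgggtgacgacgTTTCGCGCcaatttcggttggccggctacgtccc

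Ribosome production genes had the highest median of the 60 lists, apart from the study's own presynaptic genes. Of 40 ribosome biogenesis and RNA polymerase I genes 38 were above 0, the median was 0.63 (0.31 with Ptbp1 siRNA alone), and the summed level was 4867, 5844 and 7270 CPM. Rrp12, which helps export of preribosomes (chromosome 19, 41937342 to 41970644), had 767, 1777 and 1938 reads and stood 2.72-fold higher (2.50 to 2.96). Heatr1, a factor for transcription and processing of the ribosomal precursor, had 654, 1065 and 1234 reads and was 2.03-fold higher (1.84 to 2.23). Polr1b, a large subunit of RNA polymerase I, had 931, 1385 and 1713 reads (0.97), Nop58, a snoRNP core protein, 1663, 2470 and 3105 (1.00), and Ncl, nucleolin, 15759, 20415 and 21317 (0.54). Outside the list, Pop1, a subunit of RNase P and RNase MRP, had 309, 523 and 837 reads and was 2.91-fold higher (2.55 to 3.33). Cytosolic ribosomal protein genes did not share this: 28 of 39 were below 0, the median was -0.11 and none was called.
Myc, a transcription factor known to drive ribosome production (chromosome 15, 61816897 to 61821917), had 893, 1133 and 1867 reads and stood 2.25-fold higher (2.07 to 2.44). Its relatives that oppose it at the same sites were lower: Mxd4 had 706, 294 and 157 reads and was 4.18-fold lower (3.51 to 5.01), Mnt had 1531, 1236 and 821 (-0.78) and Mxi1 2258, 1974 and 1344 (-0.64). Max, the shared partner, had 1205, 1104 and 1016 reads (-0.14) and Mycn 1288, 1457 and 1452 (0.27). Txnip, an arrestin-like protein that limits glucose uptake, had 1974, 846 and 453 reads and was 4.05-fold lower (3.66 to 4.50), with 20.0% of its exon bases shared with another gene. Tfrc, the transferrin receptor, had 1003, 1648 and 2143 reads and was 2.30-fold higher (2.13 to 2.48), and was the call among 18 measured genes of the iron list. The E-box CACGTG lay in 6 of 35 ribosome biogenesis promoters (17.1%) and in 1189 of 9992 measured genes (11.9%), 17 of 107 called higher (15.9%) and 26 of 267 called lower (9.74%). It lay in 5 of 16 sterol genes (31.2%), 7 of 43 actin and adhesion genes (16.3%) and 3 of 19 glycolysis genes (15.8%) as well, lists with medians below 0.

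Neuronal differentiation genes had a median near the control and few called members. The median over 30 neuronal differentiation markers was 0.18, with Syt5, a synaptotagmin, called higher from 18, 56 and 56 reads and Eno2 called lower. Tubb3 had 15926, 16501 and 14151 reads (-0.07), Gap43, a growth cone protein, 3811, 5081 and 6005 (0.76) and Nefh, a neurofilament subunit, 2394, 3978 and 4263 (0.93), while Mapt, which encodes tau, had 1813, 1557 and 1092 (-0.62).
Of 17 catecholaminergic genes Dbh and Phox2a were called higher. Dbh, which converts dopamine to noradrenaline (chromosome 2, 27021028 to 27038725), had 2153, 4743 and 4671 reads and stood 2.33-fold higher (2.22 to 2.46). Phox2a, a homeobox factor that acts on Dbh, had 1522, 1982 and 2940 reads and was 2.08-fold higher (1.95 to 2.21), with 26.1% of its exon bases shared. Th, earlier in the same synthesis, had 1426, 1581 and 1133 reads (-0.23), and Slc18a1, a vesicular monoamine transporter, had 78, 95 and 33 (-0.88). Slc18a3, the vesicular transporter of acetylcholine, was higher, with 233, 432 and 600 reads (2.77-fold higher, 2.38 to 3.23), and so was Chrna3, a nicotinic receptor subunit, with 1207, 1858 and 2268 (2.02-fold higher, 1.88 to 2.17).
Among 26 developmental transcription factors, with a median of 0.33 (0.05 with Ptbp1 siRNA alone), Tbx3, Tbx2 and Tlx2 were called higher. Tbx3, a T-box repressor (chromosome 5, 120120679 to 120134611), had 72, 95 and 303 reads and stood 4.52-fold higher (3.49 to 5.93), with the Ptbp1 siRNA library close to the control. Tbx2 had 500, 804 and 1248 reads and was 2.68-fold higher (2.42 to 2.98). Sox9, a factor of progenitors and glia, had 2020, 1264 and 1042 reads (-0.84).
In the axon guidance list 3 of 28 genes were called higher and 1 lower, against 1.11% and 2.66% of all measured genes. Below 0 lay 15 of the 28, and the median was -0.07. Nrp1, the semaphorin receptor neuropilin 1, had 523, 930 and 1330 reads and was 2.73-fold higher (2.47 to 3.03), and its signalling partner Plxna4 had 478, 772 and 939 and was 2.11-fold higher. Nrp2 had 271, 379 and 472 reads (0.87), the ligands Sema4g 692, 623 and 379 (-0.74), Sema4c 3570, 3251 and 2225 (-0.57) and Sema4d 2008, 1812 and 1323 (-0.49). The ligand Sema4f was called higher from 13, 34 and 43 reads, and the repellent Slit1 was called lower with 120, 125 and 38. Of 27 cadherins and adhesion molecules (median -0.05) Cdh15 was the call, higher with 56, 115 and 119 reads, and Ncam1 had 4103, 4991 and 5417 (0.50).

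In the synaptic vesicle and exocytosis list (36 genes outside the study's own, median 0.07) Napb and Syt5 were called higher and Snap23 lower. Napb, the neuronal form of the SNARE-recycling factor SNAP, had 562, 1380 and 1327 reads and was 2.54-fold higher (2.30 to 2.81), and its broad relative Napa had 1986, 2225 and 1894 (0.04). Snap23, the SNARE of non-neuronal exocytosis, had 470, 258 and 152 reads and was 2.88-fold lower (2.39 to 3.48), and Snap25, its neuronal relative, had 4883, 4976 and 4720 (0.05). Close to 2-fold higher were genes of the release machinery: Cplx1, complexin 1, had 2304, 3987 and 4146 reads (0.95) and Syt6, a synaptotagmin, 1265, 1807 and 2350 (0.99).
That contrast was followed in 19 pairs of a broadly expressed gene and a paralogue assigned to neurons, with Kif5b in more than 1 of them. The assignment was not tested here and is loose for some pairs, such as Aldoc and Aldoa. The pairs were chosen after their values were seen and are a description only. The difference of the neuronal member was the larger in 17 pairs, with a median gap of 0.71 on the log2 scale. Choosing the pairs in that way shaped both numbers, so they are not support for a general contrast. Vamp2 and Kif5a, which the study picked, are among the pairs. In the talin pair Tln1 was lower, with 3043, 1853 and 1061 reads, while Tln2 had 1078, 1442 and 2013 reads (0.99), so that Tln2 made up 21.2%, 37.2% and 59.1% of the pair per kilobase of exon. In the kinesin-1 pair Kif5b had 2296, 2162 and 2191 reads (0.04), and the share of Kif5a was 20.9%, 38.8% and 41.7%. For Vamp2 and Vamp3, the latter with 1637, 1503 and 1287 reads, the share of Vamp2 was 43.6%, 63.9% and 72.7%. The pairs that went the other way were the glycolytic enzymes, Eno2 against Eno1 and Aldoc against Aldoa, where both members were lower.

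**Figure D5:**
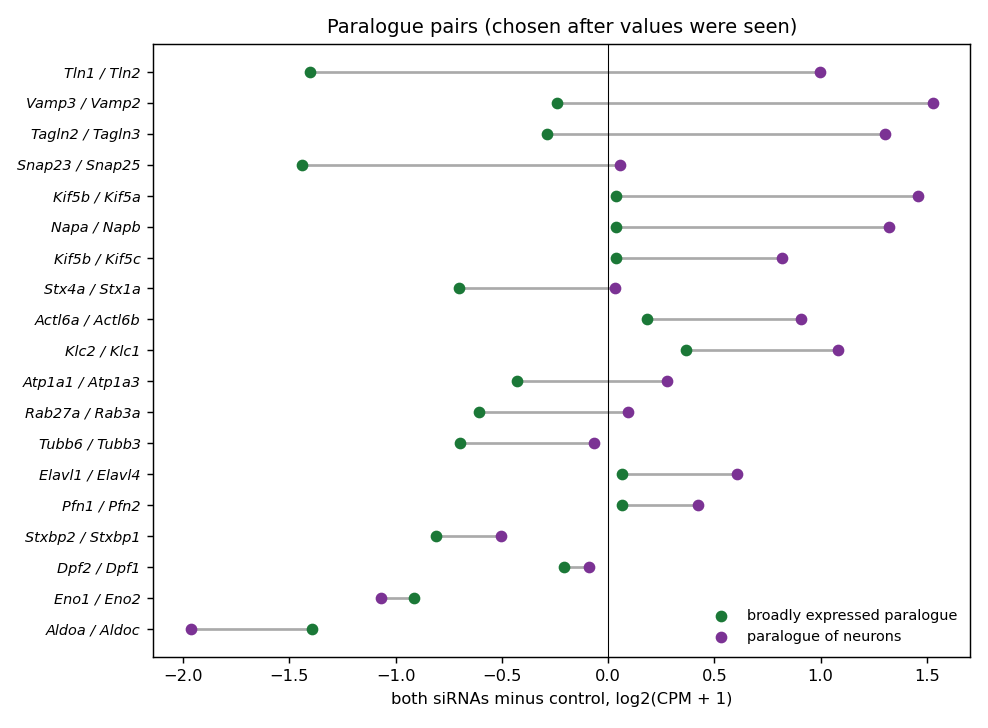
Differences of both siRNAs minus control on the log2(CPM + 1) scale for 19 pairs of paralogues, green for the broadly expressed member and purple for the member assigned to neurons, 1 library a side, ordered by the gap. The neuronal member lies to the right in 17 pairs, with Tln2 at 0.99 against Tln1 at -1.40, and to the left for enolase and aldolase. The pairs were chosen after their values were seen, so the count is a description only.

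RNA-binding proteins were mostly near the control. Of 34 tissue-specific splicing regulators A2bp1, the table's symbol for the neuronal regulator Rbfox1, was the call, higher with 38, 160 and 187 reads (5.29-fold higher, 3.72 to 7.71). Nova1 had 516, 706 and 743 reads (0.62), Rbfox2 2475, 2750 and 2236 (-0.04) and Mbnl2 1686, 1375 and 1167 (-0.42). Among 39 SR and hnRNP proteins Hnrnpd, a regulator of RNA stability, was called higher with 1572, 2378 and 3266 reads (2.23-fold higher, 2.10 to 2.37), and Srsf1 had 3677, 4742 and 5238 (0.61). Hnrnpl, which binds CA-rich sequences, had 6720, 7365 and 6528 reads (0.06). In the list of small RNA and decay factors, which includes the surveillance factors that act on transcripts with premature stops, none of 45 was called and the median was 0.07: Upf1 had 3258, 3734 and 3075 reads (0.02), Smg5 1918, 2803 and 2704 (0.60), and the exosome subunit Exosc2 582, 1083 and 1077 (0.97).
Alternative exons through which PTBP1 alters RNA decay have been described in Gabbr1, Hps1, Bak1 and Dlg4. Gabbr1, a GABA-B receptor subunit, was called higher with 806, 1787 and 1581 reads. Hps1, of lysosome-related organelles, was called lower with 696, 353 and 229 reads, and Bak1, an apoptosis effector with 14.8% of its exon bases shared, was called lower with 600, 314 and 264. Dlg4, which encodes PSD-95, had 3100, 3099 and 2533 reads (-0.19). For all 4 the library with both siRNAs and the library with Ptbp1 siRNA alone lay on the same side of the control they share.
Among imprinted and nuclear noncoding transcripts the maternally expressed neighbours Meg3 and Rian were called higher, and Malat1 and Peg3 lower. Meg3 had 18, 98 and 141 reads and was 8.42-fold higher (5.14 to 14.6), and Rian had 60, 181 and 177 and was 3.17-fold higher (2.35 to 4.32). Malat1, an abundant nuclear RNA, had 32671, 20757 and 12602 reads and was 2.41-fold lower (2.36 to 2.46). Peg3, an imprinted zinc finger gene, had 3811, 2626 and 1592 reads and was 2.23-fold lower (2.10 to 2.36). Gas5, a snoRNA host, had 2676, 2548 and 2660 reads (0.09).

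Large differences also fell outside the lists, and 379 of the 501 called genes were in none of them. Mr1, a class I-like molecule, had 177, 69 and 28 reads and was 5.88-fold lower (3.93 to 9.10). Myo6, the minus-end myosin, had 419, 237 and 95 reads and was 4.10-fold lower, and Fhod1, a formin, 926, 402 and 235 and 3.67-fold lower. Mov10, an RNA helicase, had 1479, 999 and 387 reads and was 3.56-fold lower, and Prkd2, a kinase of the trans-Golgi, 339, 230 and 75 and 4.21-fold lower. Cilp was the called gene with no read after both siRNAs, 32, 8 and 0 reads, at least 9.92-fold lower against a floor of 3 reads in that library.
On the higher side, Shbg, a sex hormone-binding globulin on the list of secreted proteins, had 109, 294 and 357 reads and was 3.52-fold higher (2.83 to 4.40), Ttc9b 178, 360 and 488 and 2.95-fold higher, Hrh3, a histamine receptor, 23, 109 and 81 and 3.79-fold higher, Dgkb, a diacylglycerol kinase, 40, 77 and 130 and 3.49-fold higher, and Jrk 107, 207 and 306 and 3.07-fold higher. All of these had under 200 reads in the control, so their order by fold is loose: Lrrc55, with 38, 103 and 172 reads, was 4.86-fold higher (3.41 to 7.11), and Pcnxl2, with 4, 15 and 47 reads, was 12.6-fold higher (4.62 to 48.3).
The largest losses in CPM after Scd2 were those of Gnas with 92335, 76999 and 61163 reads (-0.49), Vgf, a secreted neuropeptide precursor, with 44608, 33763 and 17591 (2.36-fold lower, 2.32 to 2.40), Eef2 with 75904, 70809 and 48733 (-0.54) and Malat1. The mitochondrial mt-Co1, with 230487, 234715 and 196968 reads (-0.12), came next among the losses. Among the largest gains was mt-Atp6 with 135937, 158039 and 163312 reads (0.37), whose reads also enter a near-identical nuclear copy and are uncertain, and an unnamed mitochondrial cluster gained about as much. The mitochondrial mt-Nd4 had 39936, 53403 and 57274 reads (0.62) and mt-Rnr2 49625, 55949 and 65237 (0.50). Aars, given above, was among the 10 largest gains as a nuclear gene.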

How the data were processed

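Poly(A)+ RNA of 3 CAD cell cultures was fragmented, primed at random, selected near 350 bp, given 15 PCR cycles and sequenced from both ends, 36 bases each, per the labels' protocols. Strand is not marked, and without molecular identifiers PCR copies cannot be told from molecules, so intervals and floors hold for counting error only. The gene table the authors deposited, on mm9 per the file headers, gives whole-number reads and RPKM per cluster. Aligner, counter and gene set are not given in the sources used here. Of 27389 clusters 38 hold reads below 0 (lowest -65), so the deposited values are net counts whose making is not stated, and intervals are approximate. Those clusters and 127 without length were left out. Whether reads or pairs were counted is not stated. A read can enter overlapping clusters.

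Symbols came from cluster aliases and GENCODE for mm9, and per symbol the row with the highest mean was kept. TMM factors (trims 30% and 5%; 0.972, 1.02 and 1.01, computed with numpy 2.4.6) gave CPM. Genes under 1 CPM in the higher library were left out, and 1 CPM was the pseudocount on the log2 scale. Intervals are Clopper-Pearson, 95%, conditional on the pair's reads. The calculation was tested on simulated data. The authors' deposited RPKM values were not used. Promoters are RefSeq's on GRCm38.p6, introns those of mm9. Groups came from the transfection labels.

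The naming rule took the targets and marker genes, every called list member, up to 6 other members per list with the largest differences, the 30 largest differences per direction (50 reads or more in the pair) and the 10 largest CPM shifts per direction. Members near the control and the paralogue pairs were named after their values were seen. Members and lists were chosen with earlier results of these data known. Some genes that meet the rule are not reported here. Alternatives were pseudocounts, filters, scalings, limits, summed rows and overlapping genes left out.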

Additional observations from a re-analysis of the deposited data

How the results depend on the processing

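No paired analysis was possible because each group has 1 library. Against 147 genes higher and 354 lower, a pseudocount of 0.1 CPM gave 350 higher, and 530 lower, and a pseudocount of 5 CPM gave 45 and 174. A limit of 1.5-fold gave 992 higher and 1312 lower, and one of 3-fold gave 9 and 47. A 2-fold difference on the log2(CPM + 1) scale already requires 1 CPM in the higher library. Removing the filter on low values therefore could not change either count. A filter at 5 CPM, median-of-ratios scaling, scaling by summed reads and summed rows per symbol kept both counts within 1.5 times. So did leaving out genes that share over 10% of their exon bases, an alternative chosen after seeing the data, with 136 higher and 328 lower. Scaling by summed reads moved the median of all measured genes from -0.01 to 0.05. Of 60 list medians, 11 changed sign under some alternative: the median of p53 response genes was 0.004 without genes of shared exons against -0.18, and the other 10 started within 0.0985 of 0 and came no further than 0.0762 beyond it. Among 497 named genes no call changed direction under any alternative run, but pseudocounts, filters and leaving genes out cannot reverse a call. The alternative scalings moved the median of all measured genes by far less than the 2-fold limit, so a reversal was hardly possible there. Of the calls, 47 fell inside the limit with a pseudocount of 5 CPM and 15 with scaling by summed reads. Depth limits the low genes: 3 reads correspond to 0.196, 0.177 and 0.210 CPM, and no alternative stands in for replicate cultures.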

Other observations

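Called genes were spread over the chromosomes. The share called lower ran from 1.23% of 408 genes on chromosome 16 to 4.33% of 647 on chromosome 10, and the share called higher from 0 of 324 on chromosome 18 to 2.08% of 480 on chromosome 12. Genes called higher had a median of 5 introns and genes called lower 9, against 7 over all measured genes with a gene model, and the median span was 17889, 21872 and 22917 bases. Protein-coding genes made up 94.9%, 98.5% and 97.1%.

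PTB proteins can bind at intron ends, and these were compared between called and measured genes. In the last 100 bases of introns, CTCTCT lay in 12% of 1106 introns of genes called higher, 12.6% of 3733 of genes called lower and 10.5% of 118042 of all measured genes, and the mean pyrimidine content was 55.4%, 55.3% and 55.6%. In last introns, the kind shown for Vamp2 and Kif5a, it was 57.6% in 127 genes called higher, 55.5% in 316 called lower and 56.1% in all 11509, with 1.31, 1.03 and 1.12 TCTT a window and CTCTCT in 14.2%, 12.7% and 12.9%. Introns of 1 gene are not independent, and these shares are descriptions.

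Several gene classes that are often followed in neurons stood near the control. Over 40 voltage-gated and ligand-gated channels the median was 0.15, and Trpm4, lower with 156, 90 and 64 reads, was called beside Chrna3. That is 1 call in each direction, against 1.11% higher and 2.66% lower over all measured genes. Chromatin regulators (46 genes) had a median of -0.01 and no call, with Actl6b, the neuronal subunit of the BAF complex, at 213, 375 and 384 reads (0.91) and Rest, a repressor of neuronal genes, at 408, 444 and 237 (-0.65). Hox genes had a median of 0.22 over 14 with no call, and Hoxc9, the member with the most reads, had 547, 718 and 798 reads (0.63). Among tubulins and microtubule-associated genes the light chain Klc1 was called higher, with 1483, 2735 and 2940 reads (2.13-fold higher, 2.00 to 2.27).
Solute carriers for amino acids, ions and nutrients had no call among 39 and a median of -0.06, with Slc7a5, a large neutral amino acid transporter, at 11687, 13998 and 13654 reads (0.33). In the list of neuropeptides, growth factors and secreted proteins the median was -0.06 over 28, Fgf1 was called lower with 326, 140 and 128 reads, and the granule protein Chgb had 25041, 18999 and 20656 (-0.17).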
